A study of Oryza sativa with 4 samples.

Results

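HOX24 (LOC_Os02g43330) and 7 of its relatives in rice were followed in whole seedlings of a transgenic line that overexpresses HOX24. All are listed as genes of class I homeodomain-leucine zipper (HD-ZIP) transcription factors. The 8 genes were taken by their MSU locus identifiers, 8 of the 52795 loci on the array, and each had 1 probe printed as 1 spot. The groups were line 40, a single transgenic line of the japonica cultivar Nipponbare that overexpresses LOC_Os02g43330, and untransformed Nipponbare wild type, with 2 arrays each. The labels describe the replicates as biological, and all plants were soil-grown in a greenhouse and 14 days old. The promoter of the transgene is not given in the sources used here. With 1 line, the overexpressed gene and other features of the line cannot be told apart.

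In an HD-ZIP protein the homeodomain binds DNA, and the leucine zipper next to it joins a pair of such proteins, alike or different, into the dimer that binds. Class I proteins recognise a short, nearly palindromic AT-rich site, and in plants many of them respond to drought, abscisic acid or light. HOX24, HOX22 and HOX6 form 1 branch of the class in rice, whose members respond to water deficit. HOX4 is known for damping the response to gibberellin, the hormone of stem elongation.

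Of the 8 symbols, 7 stood on the right chromosome and in the right order in the gene table. The symbol HOX12, which came with LOC_Os03g07450, did not: the gene so named in that table lies on the other side of MADS47 from that locus, and HOX21 fills the interval in which LOC_Os03g07450 belongs. The locus is therefore called by its identifier, its class rests on the list alone, and no role is given for it.

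HOX24 was 147-fold more abundant in line 40. Its processed signals, the spot intensities after background subtraction, were 229115 and 280179 on the line 40 arrays, against 1449 and 2116 on the wild type arrays. The groups lay far apart, and no spot was saturated. Its spot was 7783 and 10495 times as bright as the local background in line 40, and 44.3 and 63.7 times in the wild type, so that the gene was also measured well above background without the transgene. The normalized log2 signal, where 0 is the array's 75th percentile, averaged 9.25 ± 0.14 in line 40 and 2.05 ± 0.09 in the wild type (SD, n = 2 each). The difference was 7.20 (SE 0.16, limma adjusted p = 0.00105), and its 95% interval ran from 110 to 195-fold. Each of the pairings of a line 40 with a wild type array gave a difference between 7.03 and 7.36. The files do not place the probe within the gene, so transcripts of the transgene and of the gene's own copy cannot be told apart.

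No relative passed the test over all loci. Across the array 766 of 36902 tested loci did (2.08%), 343 higher (0.929%) and 423 lower (1.15%) in line 40; this split was 251 and 155 after quantile normalization, and 764 and 335 after normexp. The count of all loci moved to 487 without line 40 replicate 1, 477 without line 40 replicate 2, 168 without wild type replicate 1 and 2245 without wild type replicate 2. Among the 34057 loci well above background on all 4 arrays, 417 passed. All 7 relatives belonged to these 34057, and none was saturated. Of their log2 differences 5 lay below 0 and 2 above, between -0.72 and 0.18 with a median of -0.41, against a median of -0.06 over all tested loci, of which 56.3% lay below 0; with median scaling these medians were -0.26 and 0.08. At an unadjusted limma p under 0.05 stood 4 of the 7, against 24.9% of all loci. These were HOX4, HOX13, HOX6 and HOX14, the same 4 in which both line 40 arrays lay below both wild type arrays. Groups did not overlap for 59.4% of all loci, and for 34.3% with line 40 the lower.

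**Figure D1:**
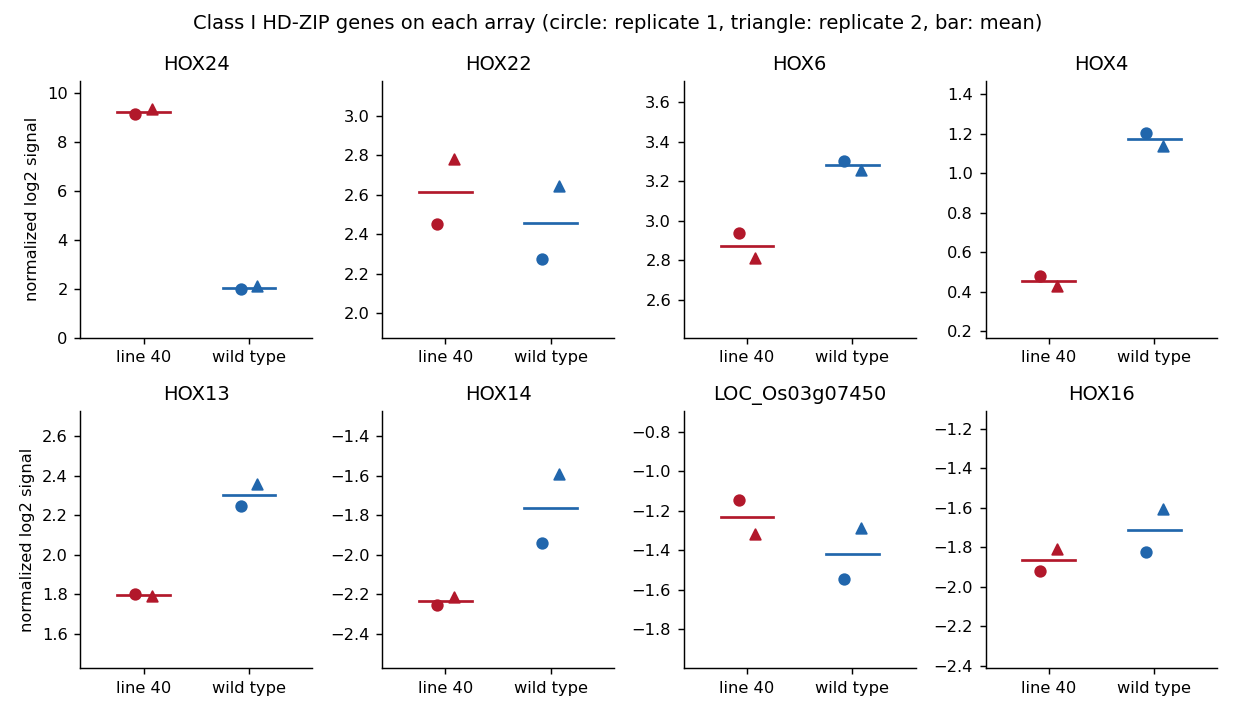
Normalized log2 signal of the 8 genes listed as class I HD-ZIP on each array, with line 40 in red and wild type in blue. Circles are replicate 1, triangles replicate 2 and bars the mean of 2 arrays. The panel of HOX24 has its own scale and the others span equal ranges; HOX24 averaged 9.25 in line 40 and 2.05 in the wild type, whereas the groups of HOX22, LOC_Os03g07450 and HOX16 overlapped.

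HOX22 (LOC_Os04g45810), the relative of HOX24 in the drought-responsive branch that is itself known as a regulator of abscisic acid responses, showed no difference larger than its spread. Its processed signals were 2209 and 2959 in line 40, against 1773 and 3058 in the wild type. Replicate 2 was the higher array in both groups, and the groups overlapped. The normalized log2 signal averaged 2.62 ± 0.23 in line 40 and 2.46 ± 0.26 in the wild type (SD, n = 2 each), a difference of 0.16 (SE 0.21, adjusted p = 0.679). The interval ran from 0.763 to 1.63-fold. Its arrays differed by 0.33 within line 40 and by 0.37 within the wild type. In the brightest decile of tested loci, to which HOX22 belongs, the median gaps between replicate arrays were 0.11 in line 40 and 0.19 in the wild type, so HOX22 varied more between replicates than the typical locus of its brightness. The sign of its difference turned without wild type replicate 1 (-0.031) or line 40 replicate 2 (-0.0085).

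HOX6 (LOC_Os09g35910), the third gene of that branch, stood lower on both line 40 arrays. Signals of 3088 and 3022 in line 40 compared with 3619 and 4663 in the wild type. The normalized log2 signal was 2.87 ± 0.09 in line 40 and 3.28 ± 0.03 in the wild type (SD, n = 2 each), a difference of -0.41 (SE 0.15, adjusted p = 0.182). Line 40 was at 75.4% of the wild type level, with an interval of 0.58 to 0.981-fold. Within the branch, then, the overexpressed gene rose, HOX6 was at the lower level without passing the test, and HOX22 overlapped between groups; differences between these genes were not tested.

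HOX4 (LOC_Os09g29460) came closest to the threshold among the relatives. Its signals were 564 and 581 in line 40, against 844 and 1076 in the wild type, and the groups stood well apart. The normalized log2 signal was 0.46 ± 0.03 in line 40 and 1.17 ± 0.04 in the wild type (SD, n = 2 each). The difference of -0.72 (SE 0.14, adjusted p = 0.0783) put line 40 at 60.9% of the wild type level, with an interval of 0.472 to 0.787-fold. All pairings of arrays gave a difference between -0.77 and -0.66, which is far larger than the gaps of 0.05 within line 40 and 0.06 within the wild type. Only 5.38% of tested loci had a smaller p. Among the 34057 loci measured on all 4 arrays, the smallest difference that passed was 0.98 in size, and HOX4 stayed below that size.

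HOX13 (LOC_Os03g08960) showed the same order at a smaller size. Its signals were 1408 and 1493 in line 40, against 1738 and 2506 in the wild type. The normalized log2 signal was 1.80 ± 0.0064 in line 40 and 2.30 ± 0.08 in the wild type (SD, n = 2 each), a difference of -0.50 (SE 0.15, adjusted p = 0.133). Line 40 was at 70.5% of the wild type level (interval 0.543 to 0.914-fold). HOX14 (LOC_Os07g39320), a gene studied for its part in panicle development, had the dimmest probe relative to local background of the 4 genes without overlap. Its signals were 84.7 and 93.0 in line 40, against 95.7 and 162 in the wild type, so the unscaled signals of both groups came close, and the wild type arrays differed by 0.35 after scaling. The normalized log2 signal was -2.23 ± 0.03 in line 40 and -1.76 ± 0.24 in the wild type (SD, n = 2 each), a difference of -0.47 (SE 0.18, adjusted p = 0.197). That difference moved between -0.30 without wild type replicate 2 and -0.64 without wild type replicate 1.

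HOX16 (LOC_Os02g49700) and LOC_Os03g07450 overlapped between groups. HOX16 had signals of 106.9 and 123 in line 40, against 104 and 161 in the wild type, and its log2 difference was -0.15 (SE 0.16, adjusted p = 0.596) with an interval of 0.676 to 1.20-fold. LOC_Os03g07450 had signals of 182 and 173 in line 40, against 126 and 200 in the wild type. Its line 40 arrays lay between the wild type arrays in unscaled signal, and its log2 difference was 0.18 (SE 0.17, adjusted p = 0.540), with an interval of 0.837 to 1.54-fold. With 1 array left out the difference of HOX16 lay between -0.26 (without wild type replicate 1) and -0.042 (without wild type replicate 2), and that of LOC_Os03g07450 between 0.057 (without wild type replicate 1) and 0.31 (without wild type replicate 2). Over all 7 relatives the highest upper bound was the 1.63-fold of HOX22 and the lowest lower bound the 0.472-fold of HOX4 in the reported fit. In whole seedlings fewer cells of a type and less RNA per cell cannot be told apart.

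**Figure D2:**
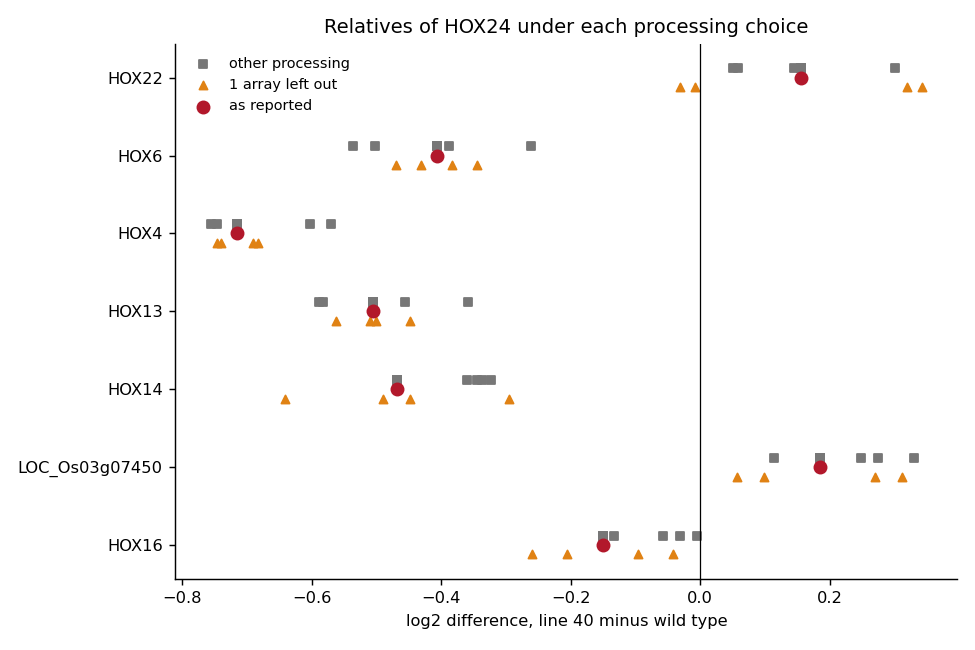
Log2 difference, line 40 minus wild type, of the 7 relatives as reported (red circles), under the other processing choices (grey squares) and with 1 array left out (orange triangles). HOX4 stays between -0.76 and -0.57, and HOX22 falls on both sides of 0.

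Differences depended on signal over the whole array. The median difference rose from -0.50 in the dimmest decile of tested loci to 0.13 in the brightest. Set against loci of their own decile, HOX4, HOX13 and HOX6 stood low: 3.09%, 4.50% and 5.36% of the loci there had a lower difference. For HOX14 this share was 18.0%, for HOX16 43.5%, for HOX22 53.3% and for LOC_Os03g07450 76.5%. Of the 7 relatives 4 lay under the lower quartile of their decile. These positions describe the arrays and are not a test.

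**Figure D3:**
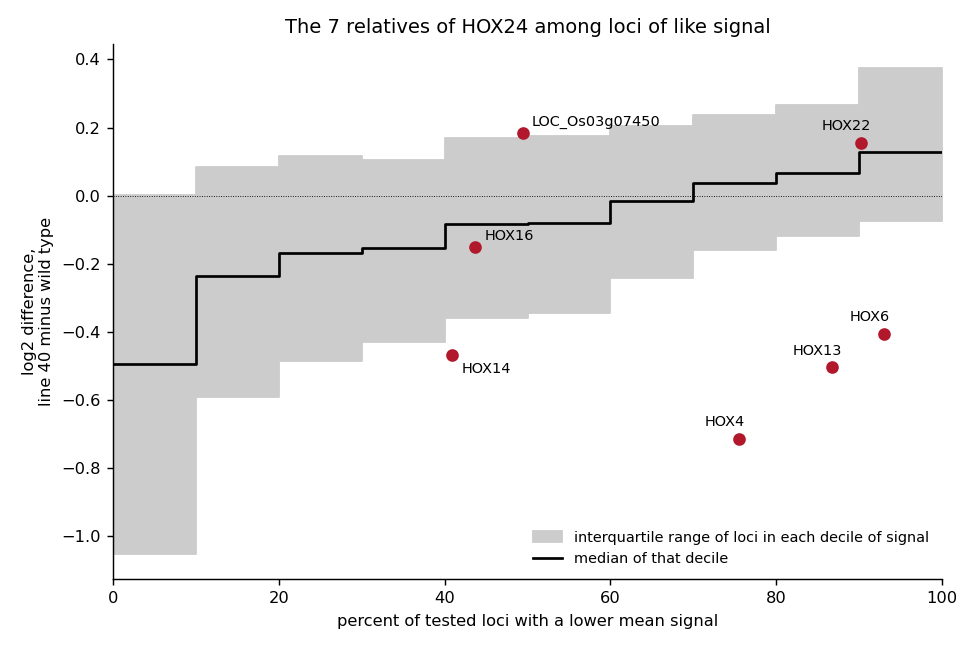
Log2 difference of the 7 relatives (red points, line 40 minus wild type) against the percent of tested loci with a lower mean signal; the grey band is the interquartile range of loci in each decile of signal and the black line their median. HOX4, HOX13, HOX6 and HOX14 lie under the band, and the other 3 relatives lie near or above its median.

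The array also held 6 further genes listed as class I and 23 genes listed as class II, III and IV. None of these 29 passed the test (limma). Of the 29, 4 had an unadjusted limma p under 0.05, against 24.9% of all tested loci. These were LOC_Os03g10210, LOC_Os08g37580, HOX18 and ROC2. With median scaling ROC2 and HOX18 passed, and with the replicate number as a block ROC2 did. The probes of HOX18 and ROC2 entered the fit only through the wild type. Their unadjusted p and these passes are therefore not read as a difference. Among the further genes listed as class I, 3 lay above 0 and 3 below, with a median of -0.06. The lowest were LOC_Os03g10210, at -0.48 (SE 0.14, adjusted p = 0.142), and LOC_Os08g37580, at -0.47 (SE 0.15, adjusted p = 0.154). LOC_Os03g10210 gave signals of 120 and 122 in line 40 against 144 and 202 in the wild type, without overlap after scaling. The gene table has HOX12 and HOX13 in the interval of this locus. The listed symbols of LOC_Os03g10210, LOC_Os08g37580 and LOC_Os08g32085 failed the check, so that their class rests on the list alone.

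Class II genes, known from shade and auxin responses, had a median difference of 0.16 over 9 loci. The HOX18 probe was well above background on 1 of 2 line 40 arrays, with signals of 6.90 and 13.4 in line 40 against 22.9 and 24.2 in the wild type. It entered the fit only through the wild type, and its lower line 40 signal lay under the lowest that counted as well above background on that array (9.97), so no exact difference is given. LOC_Os03g12860, whose listed symbol failed the check so that its class rests on the list alone, lay at -0.37 (SE 0.16, adjusted p = 0.244). Class III genes, which set the upper side of leaves and pattern the vasculature, all lay above 0, 5 of 5 between 0.14 and 0.34. In all 5 the line 40 arrays were above the wild type arrays after scaling. Across the array 25.1% of loci had this order. HOX33 lay at 0.34 (SE 0.15, adjusted p = 0.236) and HOX29 at 0.32 (SE 0.17, adjusted p = 0.296). HOX33 signals were 1022 and 1048 in line 40, against 695 and 996 in the wild type. In unscaled signal the groups of HOX9, HOX10, HOX29 and HOX32 overlapped. None of the 5 class III genes had an unadjusted limma p under 0.05, against 24.9% of all tested loci.

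Class IV genes, which act in the epidermis, had a median of -0.02 over 9 loci. The listed symbols of LOC_Os08g08820 and LOC_Os08g19590 failed the check, so that their class rests on the list alone. ROC2 was not well above background on either line 40 array, with signals of 5.96 and 2.19 there against 21.0 and 11.5 in the wild type. It too entered the fit only through the wild type, so no fold is given. ROC8 lay at -0.36 (SE 0.16, adjusted p = 0.251).

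**Figure D4:**
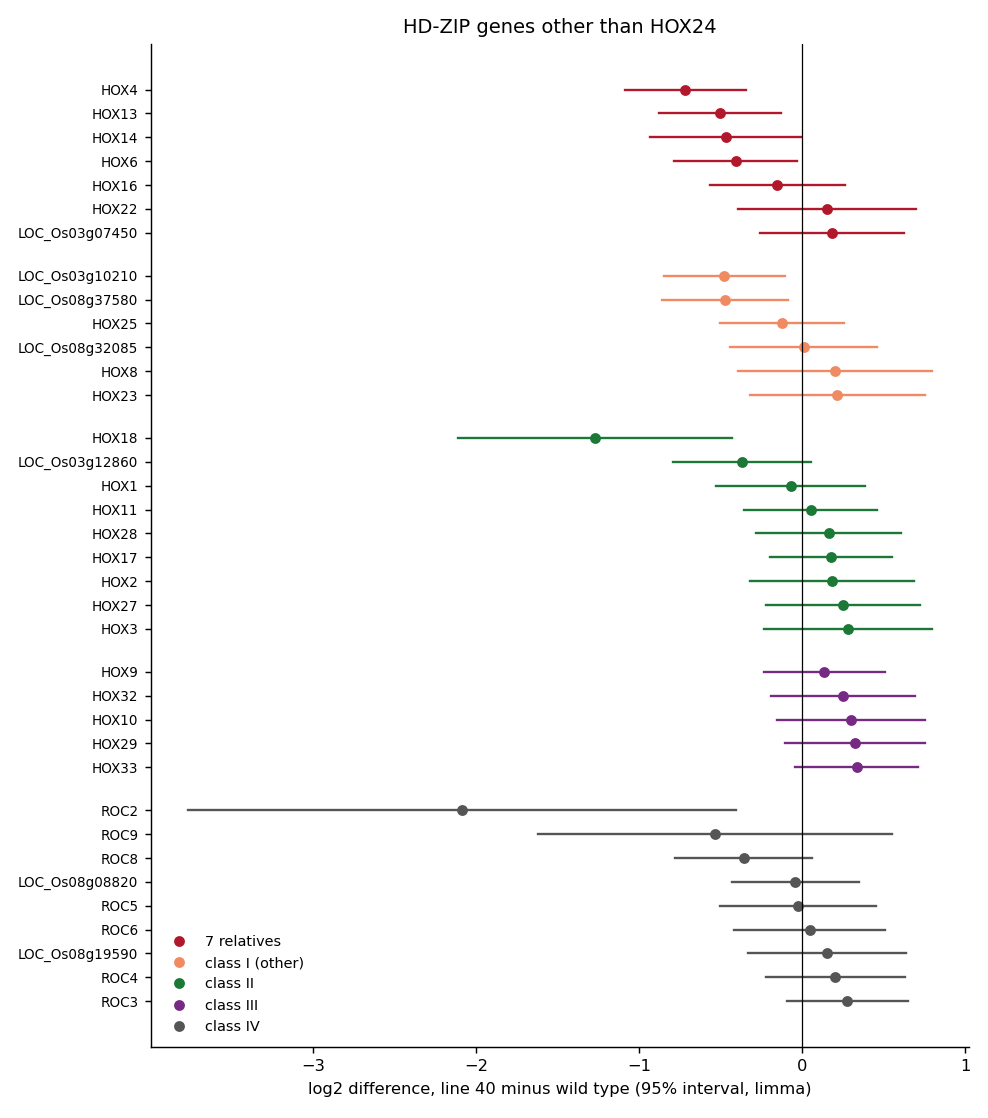
Log2 difference, line 40 minus wild type, of the HD-ZIP genes other than HOX24, as points with limma's 95% interval, grouped by list. HOX4, the lowest of the 7 relatives, lies at -0.72, all 5 class III genes lie above 0, and the widest interval is that of the dim ROC2 probe.

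Loci beside HOX24 did not pass either. Of the 5 loci on each side by identifier, 6 were tested, and their differences lay between -0.59 and 0.34. None passed the threshold (lowest limma adjusted p = 0.232), against 2.08% of all tested loci. At that share, 6 loci are too few to read this as a result about the window. This window was chosen with results known.

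The 5 loci whose values were most like those of HOX24 over the 4 arrays were found by the root mean square distance between log2 values centred on the wild type mean. LOC_Os07g32710 was nearest, at 0.14, with signals of 30168 and 29284 in line 40 against 182 and 271 in the wild type, a 136-fold rise (log2 difference 7.08, SE 0.16, adjusted p = 0.00105). LOC_Os07g32680, close to it in locus number, followed at 1.00, with 3783 and 3304 in line 40 against 51.0 and 80.8 in the wild type. LOC_Os03g43100 stood at 1.24, LOC_Os01g64949 at 1.65 and LOC_Os06g42710 at 1.84, and their rises were 43.7, 29.2 and 24.1-fold. Wild type signals were only 21.0 and 34.3 for LOC_Os01g64949 and 18.8 and 26.1 for LOC_Os06g42710. These spots were 1.59 to 1.97 times as bright as the local background, so the folds of these 2 loci are imprecise. The 7 relatives lay at distances between 4.96 and 5.60. All of these distances are over 4 arrays and mostly follow the size of the group difference.

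Of 55078 probes, 37500 and 37930 were well above background on the line 40 arrays, and 39715 and 39824 on the wild type arrays. Leaf and root transcripts were both well above background on all 4 arrays: the Rubisco small subunit gene LOC_Os12g17600 gave signals of 65388 and 75251 in line 40 against 21786 and 31680 in the wild type, a log2 difference of 1.44 (SE 0.15, adjusted p = 0.0276) that passed the test, and the nitrate transporter gene NRT2.1 (LOC_Os02g02170), expressed in roots, gave 156 and 50.6 in line 40 against 143 and 174 in the wild type, a difference of -0.80 (SE 0.56, adjusted p = 0.422) that did not pass. The part of leaf and root content in the values of the relatives was not tested. HOX27, printed 16 times on each array, varied between spots by a log2 SD of 0.07 and 0.09 on the line 40 arrays and 0.08 and 0.09 on the wild type arrays, a measure of spot error at signals between 1384 and 2866.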

How the data were processed

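Cy3-labelled total RNA was read on a custom Agilent array of 1 colour, per the labels. The deposited scanner files hold spot intensity from Feature Extraction 10.7.1.1, per the file headers, background-subtracted and detrended but not scaled between arrays; its flags (well above background, uneven, saturated) were deposited with it. The deposited table of the series held the same intensity (within 0.1% for all 62976 spots). All 4 arrays shared 1 slide and 1 scan time.

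Values are log2 of that deposited intensity minus the array's 75th percentile over non-control spots; the 1319 control spots were left out, uneven spots dropped and repeated spots averaged. A probe counted as measured if both arrays of line 40 or both of the wild type had it well above background, and the brightest measured probe stood for its locus, which left 36902 loci. Groups were compared with limma 3.58.1 (lmFit, eBayes, two-sided, in R 4.3.3), with Benjamini-Hochberg adjustment across those loci and a threshold of 0.05. The fit was also run on simulated data with equal spread at every locus and planted changes larger than that of any relative. That run does not bear on differences of the size seen in the relatives. SE and intervals are limma's moderated ones. The small number of arrays limits the precision.

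The members and lists were chosen with earlier results of these data known. The rule named every member, the 2 loci of each other list with the smallest adjusted p and the 5 loci most like HOX24. Files give locus identifiers without symbols. Of 37 listed symbols, 26 matched RefSeq (gene table of ASM3414082v1) by chromosome and order, 4 had no entry (HOX18, HOX23, HOX25 and HOX27, whose names rest on the lists alone) and the other 7 failed and are not used; for the order, genes of known locus number served as landmarks. Array identifiers rest on another build (IRGSP5), so no coordinates are given. Alternatives were normexp background correction, quantile, median and cyclic loess normalization, no filter, uneven spots kept and both other probe rules. Each array was also left out, and the replicate number was used as a block. Normexp (offset 50) used median spot and background signals, because the scanner files hold no mean signal, which had been planned.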

Additional observations from a re-analysis of the deposited data

How the results depend on the processing

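HOX24 passed under all 13 alternatives, with log2 differences between 6.91 (quantile normalization) and 7.34 (median scaling) and adjusted p up to 0.0203. With an array left out, the spread came from the group that kept 2 arrays, and the lone array was assumed to vary like them. None of the 7 relatives passed under any of the 13 alternatives, 91 values in all (lowest adjusted p 0.0612, for HOX4 after normexp). HOX4, HOX6, HOX13, HOX14 and HOX16 stayed below 0 and LOC_Os03g07450 above 0 in all 13, HOX16 narrowly with median scaling (-0.0045). The difference of each gene was fixed in advance under no filter, uneven spots kept, both other probe rules and the replicate block. Each had 1 probe and 1 spot, and the block is balanced, so these settings could move only the SE and p. HOX22 turned to -0.031 without wild type replicate 1 and -0.0085 without line 40 replicate 2; it reached 0.34 without wild type replicate 2, and the cause was not tested. The median of the relatives was -0.26 under median scaling, where all loci together had a median of 0.08, against -0.06 as reported. With an array left out it lay between -0.45 and -0.30.

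Other HD-ZIP loci past the threshold numbered 2 with median scaling (ROC2 and HOX18) and 1 with the replicate block (ROC2), against 0 as reported. Both probes entered the fit only through the wild type, so these counts are not read as changes, and the cause was not tested. With the replicate number as a block HOX24 stayed at 7.20 (adjusted p = 0.00315), no relative passed, and HOX22 had an SE of 0.19. Deviations of same-numbered arrays correlated at -0.07, and nothing in the labels says what the numbers share. Over all loci 766 passed, against 406 with quantile normalization, 2736 with median scaling, 23 without the filter on dim probes, and 168 to 2245 with an array left out (lowest without wild type replicate 1, highest without wild type replicate 2). HOX14, HOX16 and LOC_Os03g07450, at 4.07 to 8.09 times the local background, were the relatives with the least signal.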
